A study of Mus musculus with 8 samples.

Results

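The 10 genes described here encode WNT ligands and were taken by name: *Wnt2*, *Wnt4*, *Wnt5a*, *Wnt5b*, *Wnt6*, *Wnt7a*, *Wnt7b*, *Wnt9a*, *Wnt11* and *Wnt16*, of 21951 protein-coding genes in the GENCODE mouse annotation. PBRM1, the BAF180 subunit of the polybromo form of the SWI/SNF chromatin remodeler, and BRG1, the ATPase of the complex, were mapped by chromatin immunocleavage sequencing (ChIC-Seq), in which an antibody carries micrococcal nuclease to the chromatin that its antigen occupies. Stromal cells were isolated at D4 from the uterine horns of WT mice aged 8 to 12 weeks, with 5 to 10 pseudopregnant animals to a preparation (another label field calls the time day 4 of pregnancy), and plated for some hours before fixation. There were 3 replicates for each antibody, with 50000 cells per library by the labels, although the published methods give a higher range of cell numbers. Files of the 2 IgG samples were not used here. All groups were WT, so that the comparison was between antibodies and not between genotypes.

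WNT proteins are secreted, lipid-modified ligands. They bind Frizzled receptors, either with LRP5 or LRP6 to stabilize β-catenin or with ROR and RYK receptors in β-catenin–independent signaling. In the mouse uterus, WNT ligands carry signals between the epithelium and the stroma during gland formation, receptivity and decidualization. *Wnt2*, *Wnt4*, *Wnt5a*, *Wnt6* and *Wnt16* are treated here as stromal ligands and *Wnt7a*, *Wnt7b* and *Wnt11* as epithelial ligands, from general knowledge of the uterus. *Wnt5b* and *Wnt9a* were put in neither set.

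A promoter peak is a peak with at least 1 bp within 2000 bp of any annotated transcription start site (TSS) of the gene. The window of a gene is its body plus 50 kb on each side, and none of the 10 windows overlap each other. Sites are the merged peaks of the pooled PBRM1 and pooled BRG1 lists, and a site is called shared by all replicates where each of the 6 replicate lists has a peak on it. Fold enrichment is the pileup of fragments at the summit over the local background of the same library, as the authors' peak caller gave it. Because it is not on a common scale across libraries, the rank of a peak by q-value within its own list is given as a percentile, with 100 as the strongest peak.

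The 6 replicate lists rested on 8868777 to 16505239 fragments and held 21912 to 40610 peaks. Every BRG1 list, from 36656 peaks upward, was longer than every PBRM1 list, of which the longest held 26363. The pooled lists, with 55119 PBRM1 and 82669 BRG1 peaks, were called on all fragments of an antibody and reach weaker sites than a replicate does. As a check of the cell type, all 10 stromal marker genes had a pooled promoter peak of each antibody and 7 had one in all 6 replicates. Of 10 epithelial marker genes, 9 had a pooled PBRM1 and 10 a pooled BRG1 promoter peak, 6 had one in all 3 BRG1 replicates and 2, *Krt7* and *Muc1*, in all 6. Of 4 endothelial marker genes, 3 had a pooled PBRM1 and 4 a pooled BRG1 promoter peak, with 3 in all 3 BRG1 replicates and 1, *Kdr*, in all 6. Of 3 smooth muscle marker genes, 2 had a promoter peak in each pooled list and none in all 6 replicates, and none of 4 leukocyte marker genes had one in either pooled list. Over all protein-coding genes, 68.7% had a pooled PBRM1 and 72.1% a pooled BRG1 promoter peak, 61.4% one in all 3 BRG1 replicates and 51.9% one in all 6. A promoter peak is not a measure of expression, and the part of other cell types in these lists was not tested.

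Each of the 10 *Wnt* genes had a promoter peak in both pooled lists, but the genes differed in where their strongest sites lay. By q-value, the strongest pooled PBRM1 peak of the window was at the own promoter in 3 genes (*Wnt2*, *Wnt16* and *Wnt9a*), in the flank in 5 (*Wnt4*, *Wnt5a*, *Wnt6*, *Wnt7b* and *Wnt11*) and at the promoter of another gene in 2 (*Wnt7a* and *Wnt5b*). For BRG1 the same counts of 3, 5 and 2 held, with *Wnt2*, *Wnt5a* and *Wnt6* as the genes led by their own promoter. This division was not counted over all protein-coding genes, so these counts do not tell whether the *Wnt* genes differ from others. Across the 10 windows, 148 sites were found, of which 88 were in both pooled lists, 12 in the PBRM1 list only and 48 in the BRG1 list only. Those in both made up 59.5%, beside 45.3% of all merged sites of the genome. All 6 replicates shared 18 of these sites, or 12.2%, beside 14% of all 93421 merged sites of the genome. Of the 18, 5 were at the own promoter, 3 at the promoter of another gene and 10 in the flanks, and none of the 24 gene body sites was shared by all 6. Shares by class were not counted over the genome, so this division is not shown to be particular to the *Wnt* genes. A further 51 sites, or 34.5% beside 38.9% of all merged sites, had no peak in any replicate and were found in the pooled lists alone.

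**Figure D1:**
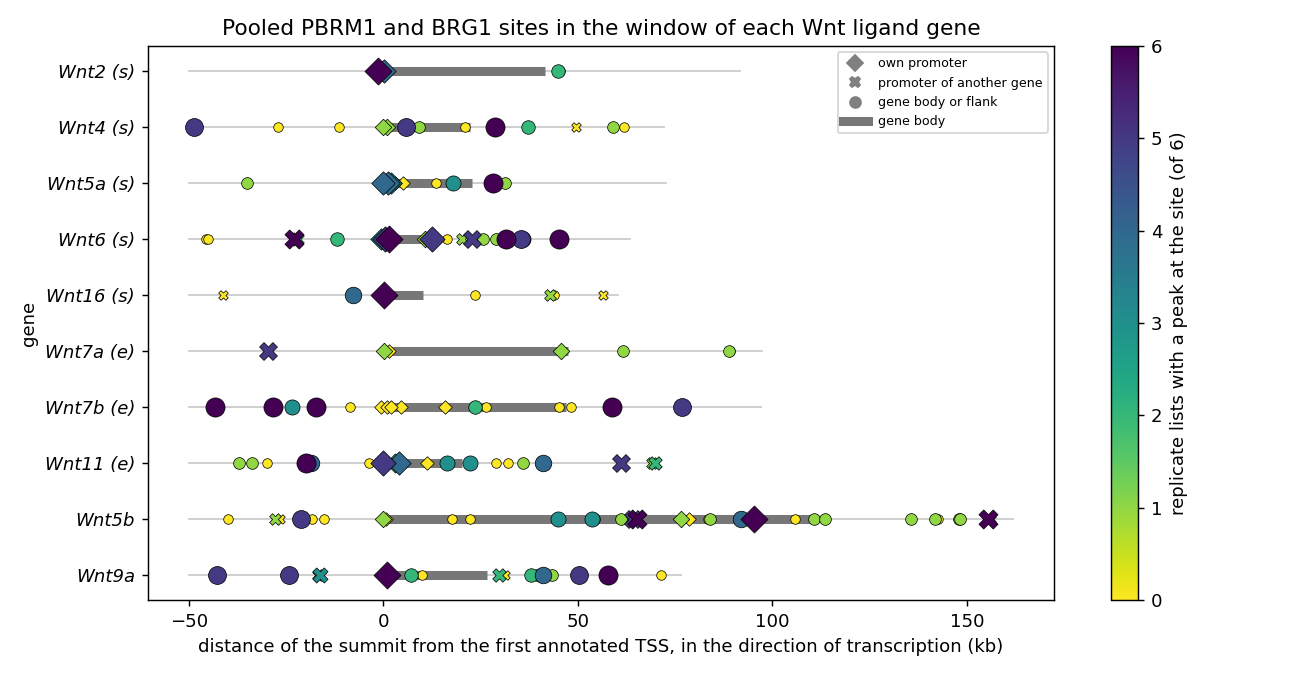
Position of each pooled PBRM1 or BRG1 site (symbols) by gene (rows), as the distance in kb of its summit from the first annotated TSS in the direction of transcription, with the gene body as a thick bar and the window as a thin line. Colour and size give the number of replicate lists, of 6, with a peak at the site. *Wnt7b* has 4 dark symbols, all outside its gene body, whereas *Wnt2*, *Wnt6*, *Wnt16* and *Wnt9a* have one near the start of the gene.

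To show what these sites are made of, the 100 bp on each side of the pooled PBRM1 summit are printed for 5 genes. Sites at promoters of other genes, such as *Fbxl14* inside *Wnt5b*, were set aside. Among the remaining sites shared by all 6 replicates, the 5 genes are those with the highest pooled PBRM1 fold enrichment, leaving out *Wnt16*, whose site lies over an untranslated exon. The sequences are from GRCm38 and read 5′ to 3′ on the strand of the gene. Capitals mark matches to 8 short strings searched on both strands, of which none contains another. They were TGANTCA for the AP-1 family, GGAATG for the TEAD family, TGTGGT for the RUNX family, GATAAG for the GATA family, ACANNNTGT for the steroid receptor core, GGGCGG for the GC box and CATCTG for an E-box. For TCF/LEF a match was any of CTTTGAA, the variant CTTTGTT, the variant CTTTGAT.
*Wnt6*, downstream flank, chr1:74817066-74817266, plus strand: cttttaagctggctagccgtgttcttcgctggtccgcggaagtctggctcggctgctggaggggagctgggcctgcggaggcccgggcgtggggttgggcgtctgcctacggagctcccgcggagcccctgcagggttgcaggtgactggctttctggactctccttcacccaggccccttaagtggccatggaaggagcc
*Wnt7b*, upstream flank, chr15:85625713-85625913, minus strand: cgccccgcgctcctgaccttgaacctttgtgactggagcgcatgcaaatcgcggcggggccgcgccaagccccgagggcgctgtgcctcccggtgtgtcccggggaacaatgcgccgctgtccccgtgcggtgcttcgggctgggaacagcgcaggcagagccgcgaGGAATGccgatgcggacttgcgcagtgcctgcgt
*Wnt11*, upstream flank, chr7:98815128-98815328, plus strand: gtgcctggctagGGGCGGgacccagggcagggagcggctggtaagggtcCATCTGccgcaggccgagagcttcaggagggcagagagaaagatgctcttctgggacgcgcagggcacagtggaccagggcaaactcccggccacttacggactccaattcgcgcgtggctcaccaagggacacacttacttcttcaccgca
*Wnt5a*, downstream flank, chr14:28532810-28533010, plus strand: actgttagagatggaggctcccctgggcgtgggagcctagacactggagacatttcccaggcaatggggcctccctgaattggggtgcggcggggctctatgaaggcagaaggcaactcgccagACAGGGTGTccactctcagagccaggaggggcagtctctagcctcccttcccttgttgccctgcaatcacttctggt
*Wnt2*, promoter, chr6:18031851-18032051, minus strand: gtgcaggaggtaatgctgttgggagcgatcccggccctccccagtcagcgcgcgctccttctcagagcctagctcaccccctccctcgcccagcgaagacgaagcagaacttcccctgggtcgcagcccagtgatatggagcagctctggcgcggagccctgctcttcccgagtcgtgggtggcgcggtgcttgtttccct

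The *Wnt7b* sequence held a TEAD string, the *Wnt11* sequence a GC box and an E-box, and the *Wnt5a* sequence a steroid receptor core. The *Wnt6* and *Wnt2* sequences held none of the 8 strings. Over windows of the same length at all 18 sites shared by the 6 replicates, 4 held a GC box, 3 an E-box, 2 a steroid receptor core, 1 a TEAD and 1 a GATA string, and none an AP-1, RUNX or TCF/LEF string. Of all 55071 pooled PBRM1 windows of this length on the chromosomes, 22.4% held the GC box, 15.8% the E-box, 4.45% the steroid receptor core, 9.99% TEAD, 3.90% GATA, 7.17% AP-1, 12.3% RUNX and 8.26% TCF/LEF. A match is a run of letters and not evidence of a bound factor. The 18 windows had a G and C content of 54.2% to 71.1%, with a median of 63.7%, and 15 of them lay above the median of 57.2% over all pooled PBRM1 windows. The *Wnt7b* sequence printed above was the richest of the 5, with 25 CpG dinucleotides, and the *Wnt5a* sequence the poorest, with 4.

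To ask which promoters were occupied reproducibly, the replicate lists were read gene by gene. In all 6 replicates, 6 of the 10 genes had a promoter peak: *Wnt2*, *Wnt6*, *Wnt16*, *Wnt11*, *Wnt5b* and *Wnt9a*. The same 6 had one in all 3 PBRM1 replicates, and *Wnt5a* joined them in all 3 BRG1 replicates. A gene can meet this with peaks at different sites, as *Wnt11* did for PBRM1 and *Wnt5a* for BRG1. Among all protein-coding genes, 68.7% had a pooled PBRM1 promoter peak, 72.1% a pooled BRG1 promoter peak and 67.7% both. A promoter peak was present in all 3 PBRM1 replicates at 52.2% of genes, in all 3 BRG1 replicates at 61.4% and in all 6 at 51.9%. The 6 of 10 *Wnt* genes are therefore near the background. At the other end, *Wnt7a* and *Wnt7b* had no promoter peak in any PBRM1 replicate, which held for 35.3% of protein-coding genes.

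**Figure D2:**
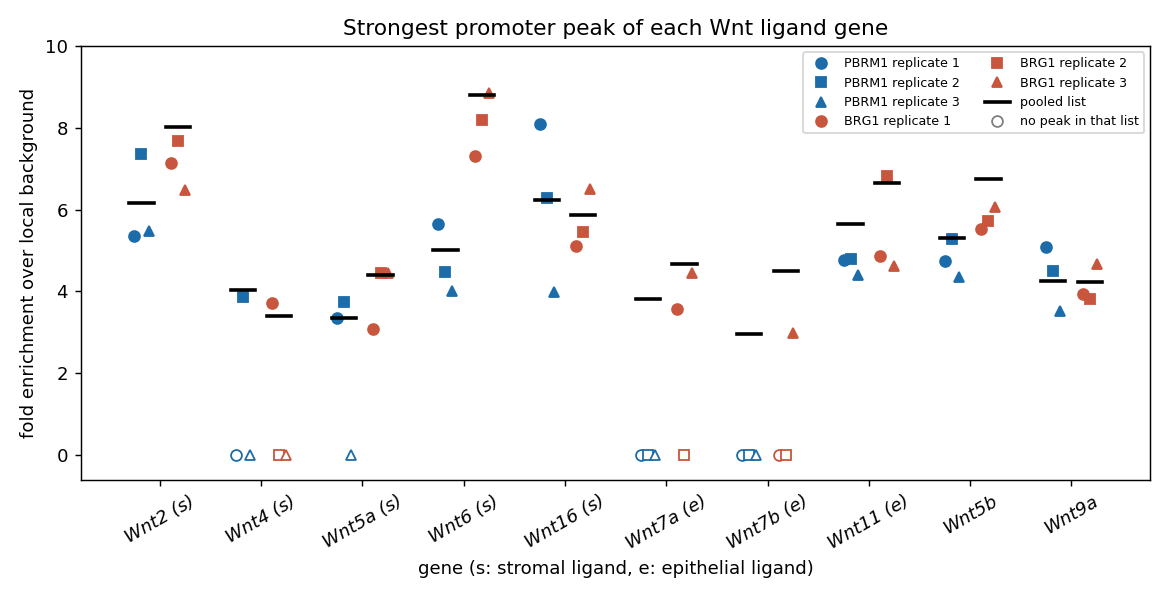
Fold enrichment over the local background (vertical axis) of the strongest promoter peak of each gene, by replicate (symbols) and in the pooled list (bars), for PBRM1 (blue) and BRG1 (red). Open symbols at 0 mark lists with no promoter peak, which are 4 of 6 for *Wnt4*, 1 for *Wnt5a*, 4 for *Wnt7a* and 5 for *Wnt7b*.

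Among the stromal ligands, *Wnt2* (chr6:17988940-18030585, minus strand) showed one of the clearest promoter sites. WNT2 is known for its roles in the placental vasculature and lung specification. Its strongest shared site had a pooled PBRM1 summit 1366 bp upstream of the only annotated TSS, in intergenic sequence (chr6:18031381-18032203). PBRM1 fold enrichments there were 4.41, 7.37 and 5.47 in replicates 1, 2 and 3, a mean of 5.75 ± 1.50 (SD, n = 3), and BRG1 values were 7.13, 7.67 and 5.46, a mean of 6.75 ± 1.15 (SD, n = 3). A neighbouring site at the TSS itself, over the 5′ untranslated exon, was found in all 3 BRG1 replicates at 5.97, 7.0 and 6.48 but in PBRM1 replicate 1 only, at 5.35. The *Wnt2* window held 4 sites in all, the fewest of the 10 genes.

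*Wnt6* (chr1:74771892-74785322, plus strand), a stromal ligand linked to cell proliferation during decidualization, had 19 sites in its window, 4 of them shared by all 6 replicates. The promoter site 1421 bp into the gene, in an intron, had PBRM1 fold enrichments of 5.65, 4.48 and 4.01, a mean of 4.71 ± 0.84 (SD, n = 3). BRG1 values at this site were 7.30, 8.20 and 8.84, a mean of 8.11 ± 0.78 (SD, n = 3). Within their own lists the PBRM1 peaks ranked between the 49.4 and 57.3 percentiles and the BRG1 peaks between 85.0 and 88.3. The BRG1 lists were longer than the PBRM1 lists, and how many other sites differ in this way was not counted.

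The strongest site of any *Wnt* window by pooled PBRM1 fold enrichment was in the downstream flank of *Wnt6*, 31.8 kb past its 3′ end (chr1:74816649-74817507, intergenic). Fold enrichments were 10.3, 10.5 and 8.61 for PBRM1, a mean of 9.79 ± 1.03 (SD, n = 3), and 10.1, 11.9 and 10.5 for BRG1, a mean of 10.8 ± 0.94 (SD, n = 3). It ranked at the 95.8 percentile of the pooled PBRM1 list and the 93.8 percentile of the pooled BRG1 list. The nearest protein-coding TSS, at 23803 bp, belonged to *Wnt10a*, another WNT ligand gene that lies next to *Wnt6*, and not to *Wnt6*. A second shared flank site lay inside *Wnt10a*, 9978 bp from its TSS, with PBRM1 values of 6.58, 5.03 and 5.37 and BRG1 values of 6.16, 6.29 and 6.97. The promoter of *Wnt10a* itself had a site in 5 of 6 replicates. On the other side of *Wnt6*, the promoter of *Prkag3*, a regulatory subunit gene of AMP-activated kinase, had a site in all 6. These lists do not tell which gene a flank site acts on.

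*Wnt16* (chr6:22288227-22298522, plus strand) carried a single wide promoter site from before its TSS into the gene (chr6:22287991-22289580). It was found in all 6 replicates, with PBRM1 fold enrichments of 8.10, 6.29 and 3.99, a mean of 6.13 ± 2.06 (SD, n = 3), and BRG1 fold enrichments of 5.10, 5.45 and 6.49, a mean of 5.68 ± 0.73 (SD, n = 3). The PBRM1 replicates differed more from each other than the BRG1 replicates did. The pooled PBRM1 and BRG1 summits lay 364 bp apart. A second site, 7701 bp upstream, was present in all 3 BRG1 replicates at 8.09, 6.49 and 7.13 and in PBRM1 replicate 1 at 4.59. In the pooled lists it reached the 84.9 percentile for BRG1 and the 23.4 percentile for PBRM1.

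*Wnt4* (chr4:137277489-137299726, plus strand) encodes a ligand required for decidualization downstream of progesterone and BMP2. Its promoter was weakly marked, with a peak in PBRM1 replicate 2, at a fold enrichment of 3.86, and in BRG1 replicate 1, at 3.72, and in no other replicate. Its reproducible sites lay elsewhere. The site shared by all 6 replicates was 6.56 kb past the 3′ end (chr4:137305823-137306820), with PBRM1 values of 6.22, 4.38 and 3.66, a mean of 4.76 ± 1.32 (SD, n = 3), and BRG1 values of 5.09, 3.50 and 4.06, a mean of 4.22 ± 0.81 (SD, n = 3). An intronic site 5892 bp from the TSS and a site 48573 bp upstream were each found in 5 of 6 replicates, with all 3 BRG1 replicates among them.

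*Wnt5a* (chr14:28504750-28527448, plus strand), a ligand of β-catenin–independent signaling, combined many fragments at its promoter with low fold enrichments. Promoter peaks were found in PBRM1 replicates 1 and 2, at 3.34 and 3.75, and not in replicate 3. All 3 BRG1 replicates had promoter peaks, at 3.07, 4.46 and 4.44. The promoter was split into 5 pooled sites around its 6 annotated start sites, and none of these sites had a peak in all 3 BRG1 replicates. A coding exon 17996 bp from the first TSS had a peak in all 3 BRG1 replicates, at 3.83, 4.29 and 4.21, and in no PBRM1 replicate. These BRG1 peaks ranked at the 13.6, 16.4 and 17.0 percentiles of their lists, and the pooled PBRM1 list had a peak there, at 3.42. The site of *Wnt5a* shared by all 6 replicates was 5.46 kb past its 3′ end (chr14:28532713-28533493), with PBRM1 values of 5.29, 5.96 and 4.37, a mean of 5.21 ± 0.80 (SD, n = 3), and BRG1 values of 5.03, 6.51 and 7.17, a mean of 6.24 ± 1.10 (SD, n = 3).

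Among the epithelial ligands, *Wnt7b* (chr15:85535437-85582473, minus strand), whose product signals through β-catenin in several epithelia, had its reproducible sites away from its promoter. No PBRM1 replicate had a *Wnt7b* promoter peak, and 1 BRG1 replicate did, replicate 3, at a fold enrichment of 2.98 and the 1.03 percentile of its list. In its flanks, 4 sites were shared by all 6 replicates, beside 2 flank sites of this kind at *Wnt6*. For the background, shared sites of any class were counted. Of 7756 protein-coding genes with no promoter peak in any PBRM1 replicate, 34.1% had a shared site in their window and 5.22% had 4 or more. Among all protein-coding genes, the 4 shared sites of *Wnt7b* were at the 88.7 percentile, as were the 4 of *Wnt6*. The 3 shared sites of *Wnt5b* were at the 80.5 percentile.

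The outermost upstream *Wnt7b* site, 43340 bp before the first TSS (chr15:85625578-85626168), had PBRM1 fold enrichments of 8.64, 7.97 and 5.55, a mean of 7.39 ± 1.63 (SD, n = 3), and BRG1 fold enrichments of 9.89, 10.5 and 8.07, a mean of 9.47 ± 1.25 (SD, n = 3). The site 11.8 kb past the 3′ end (chr15:85523198-85524128) had PBRM1 values of 8.53, 7.57 and 7.01, a mean of 7.70 ± 0.77 (SD, n = 3), and BRG1 values of 7.91, 7.44 and 10.1, a mean of 8.50 ± 1.44 (SD, n = 3). The other two shared sites were 17414 and 28419 bp upstream, with PBRM1 means of 5.91 ± 1.47 and 4.66 ± 0.76 (SD, n = 3) and BRG1 means of 4.65 ± 0.71 and 5.58 ± 0.77 (SD, n = 3). For the 3 upstream sites the nearest protein-coding TSS was that of *Wnt7b*, whereas for the downstream site it was that of *7530416G11Rik*.

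*Wnt7a* (chr6:91363981-91411363, minus strand), which is needed for gland formation and patterning of the female tract, was the only one of the 10 genes with no site shared by all 6 replicates. Among all protein-coding genes, 71.7% had at least 1 such site in their window, as did 9 of the 10 *Wnt* genes. Its promoter peaks were in BRG1 replicates 1 and 3, at fold enrichments of 3.56 and 4.44 and the 3.27 and 27.2 percentiles. They lay at different sites, 45708 and 131 bp from the first TSS in this order. No *Wnt7a* promoter site had a peak in more than 1 replicate. The most reproducible site of the window lay 29586 bp upstream, at the promoters of the noncoding genes *1810044D09Rik* and *4930471M09Rik* (chr6:91440540-91441529). It was found in PBRM1 replicates 2 and 3, at 6.98 and 6.36, and in all BRG1 replicates, at 8.11, 10.0 and 9.25.

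*Wnt11* (chr7:98835112-98855195, plus strand), a ligand of β-catenin–independent signaling and kidney branching, was the epithelial ligand with a reproducible promoter. The strongest promoter peak of each PBRM1 replicate had a fold enrichment of 4.77, 4.78 and 4.39, a mean of 4.65 ± 0.22 (SD, n = 3). For BRG1 the values were 4.85, 6.81 and 4.63, a mean of 5.43 ± 1.20 (SD, n = 3). For both antibodies the value of replicate 2 came from another promoter site than those of replicates 1 and 3. The means therefore join different sites. The promoter peaks were spread over its 5 annotated start sites, and no single promoter site was shared by all 6 replicates. A flank site 19884 bp upstream (chr7:98814944-98816008) was shared by all 6, with PBRM1 values of 6.37, 6.83 and 6.51, a mean of 6.57 ± 0.24 (SD, n = 3), and BRG1 values of 5.54, 6.96 and 7.33, a mean of 6.61 ± 0.95 (SD, n = 3). This site ranked at the 92.5 and 92.6 percentiles of the pooled PBRM1 and BRG1 lists.

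*Wnt5b* (chr6:119432531-119544347, minus strand), the longest of the genes, had 33 sites, of which 12 were gene body sites. It has 4 annotated start sites, and its shared promoter site lay 282 bp inside an internal one, 95.2 kb from the first TSS. PBRM1 values at this site were 4.75, 4.53 and 4.35, a mean of 4.54 ± 0.20 (SD, n = 3), and BRG1 values were 5.51, 5.72 and 6.07, a mean of 5.77 ± 0.28 (SD, n = 3). The strongest PBRM1 site within the *Wnt5b* body was the promoter of *Fbxl14*, an F-box protein gene annotated inside it, with PBRM1 values of 7.79, 7.46 and 7.32 and BRG1 values of 7.45, 7.16 and 7.09. At the edge of the window, the promoter of the adiponectin receptor gene *Adipor2* had BRG1 values of 11.3, 12.5 and 11.1 beside PBRM1 values of 5.38, 4.39 and 4.24. An intronic site 44.9 kb from the first *Wnt5b* TSS was found in the 3 BRG1 replicates, at 4.85, 8.64 and 5.19, and in no PBRM1 replicate. The pooled PBRM1 list had a peak at this site, at 2.93.

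*Wnt9a* (chr11:59306928-59333552, plus strand), a ligand of joint formation, had a shared promoter site centred 989 bp into the gene, in an intron. PBRM1 fold enrichments were 5.09, 4.50 and 3.52, a mean of 4.37 ± 0.79 (SD, n = 3), and BRG1 fold enrichments were 3.94, 3.81 and 4.68, a mean of 4.14 ± 0.47 (SD, n = 3). A flank site 31.2 kb past the 3′ end was also shared by all 6, at 5.64, 4.06 and 4.71 for PBRM1 and 6.35, 6.69 and 7.93 for BRG1. Its nearest protein-coding TSS was that of *Prss38*, a serine protease gene. The upstream part of the window reached into *Wnt3a*, whose promoter had a site in all 3 BRG1 replicates, at 4.03, 5.69 and 4.27, and in no PBRM1 replicate. In the pooled PBRM1 list this site had a peak, at 3.09.

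The fold enrichment of a promoter peak depends on its local background, which was worked out from the pileup and the fold enrichment of each peak and is given as a multiple of the genome mean of the same list. At *Wnt5a* the strongest pooled PBRM1 promoter peak had a pileup of 55 fragments, more than the 46 at *Wnt2*, but a fold enrichment of 3.34 against 6.15. The local background was 5.22 times the genome mean at *Wnt5a* and 2.2 times at *Wnt2*. The *Wnt5a* value was at the 97.4 percentile of the list, and in the BRG1 list it was 8.50 times the genome mean, at the 97.8 percentile. *Wnt9a* was alike, with 5.13 and 8.66 times the genome mean. *Wnt7a*, in contrast, had 1.58 and 1.91 times the genome mean, and its low fold enrichments of 3.82 and 4.67 came with pileups of 21 and 26 fragments. The median over promoter peaks of all protein-coding genes was 2.50 times for PBRM1 and 3.28 times for BRG1.

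**Figure D3:**
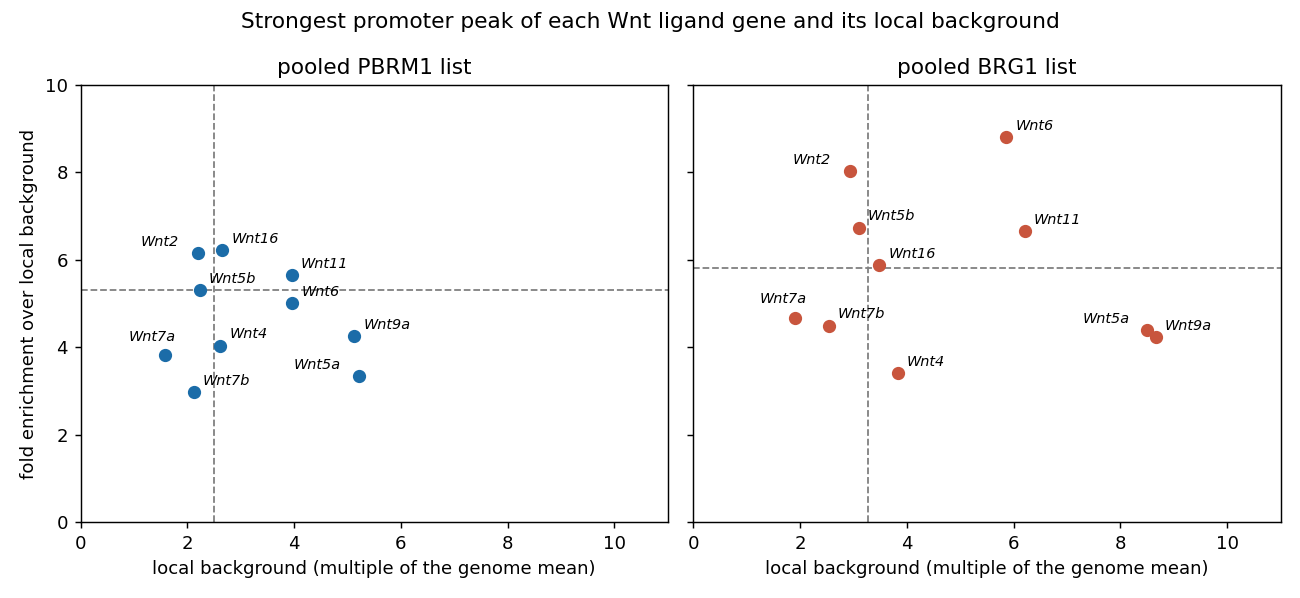
Fold enrichment of the strongest pooled promoter peak of each *Wnt* gene (vertical axis) against its local background as a multiple of the genome mean (horizontal axis), for PBRM1 (left) and BRG1 (right), with dashed lines at the medians over promoter peaks of all protein-coding genes. *Wnt5a* and *Wnt9a* lie at the right of both panels, above 5 times the genome mean, and *Wnt7a* is the furthest left in both.

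The promoters also differed in base composition. In the 1000 bp around the first annotated TSS, the median G and C content of the 10 genes was 65.7% and the median CpG ratio, observed over expected, 0.77, beside 54.8% and 0.55 over all protein-coding genes. *Wnt4* was the richest, at 79.9% and the 99.97 percentile of all genes, and yet lacked a reproducible promoter peak. *Wnt16*, at 55.5% and a CpG ratio of 0.35, was the poorest and had a promoter peak in all 6 replicates.

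To compare the antibodies, the peaks in each window were counted in every replicate. The sum over the 10 genes came to 49, 46 and 38 peaks in the PBRM1 replicates, with a mean of 44.3 ± 5.69 (SD, n = 3). It came to 76, 64 and 66 in the BRG1 replicates, with a mean of 68.7 ± 6.43 (SD, n = 3). The ratio of BRG1 to PBRM1 peaks was 1.55, beside 1.43 over the windows of all protein-coding genes and 1.61 for the whole lists. In 3 genes, *Wnt7a*, *Wnt5b* and *Wnt9a*, every BRG1 count lay above every PBRM1 count, and 22.1% of protein-coding genes behaved in this way. The BRG1 lists were also the longer ones. With the 21912 strongest peaks of each replicate, the totals were 44, 38 and 38 for PBRM1 and 42, 41 and 38 for BRG1, and no gene had counts that did not overlap.

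*Wnt9a* had 5, 6 and 5 PBRM1 peaks and 13, 9 and 10 BRG1 peaks, a difference in means of 5.33 peaks per replicate. *Wnt5b* had 6, 6 and 7 PBRM1 peaks and 13, 9 and 10 BRG1 peaks, a difference of 4.33. *Wnt7a* had 0, 1 and 1 PBRM1 peaks and 3, 3 and 4 BRG1 peaks, a difference of 2.67. For each of these genes the two-sided exact permutation test gave p = 0.1, the smallest that 3 replicates against 3 allow, and the value adjusted over all 21951 genes was 0.452. The other 7 genes had exact permutation p values from 0.2 to 1, with the smallest difference at *Wnt2*, whose counts were 3, 2 and 1 for PBRM1 and 2, 2 and 3 for BRG1. The mean count was higher for BRG1 in each of the 10 genes, with BRG1 lists that were also longer. With equal list lengths it was lower for BRG1 at *Wnt4*, *Wnt7b* and *Wnt5b* and equal at *Wnt6*. How many of all protein-coding genes had a higher BRG1 mean was not counted.

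**Figure D4:**
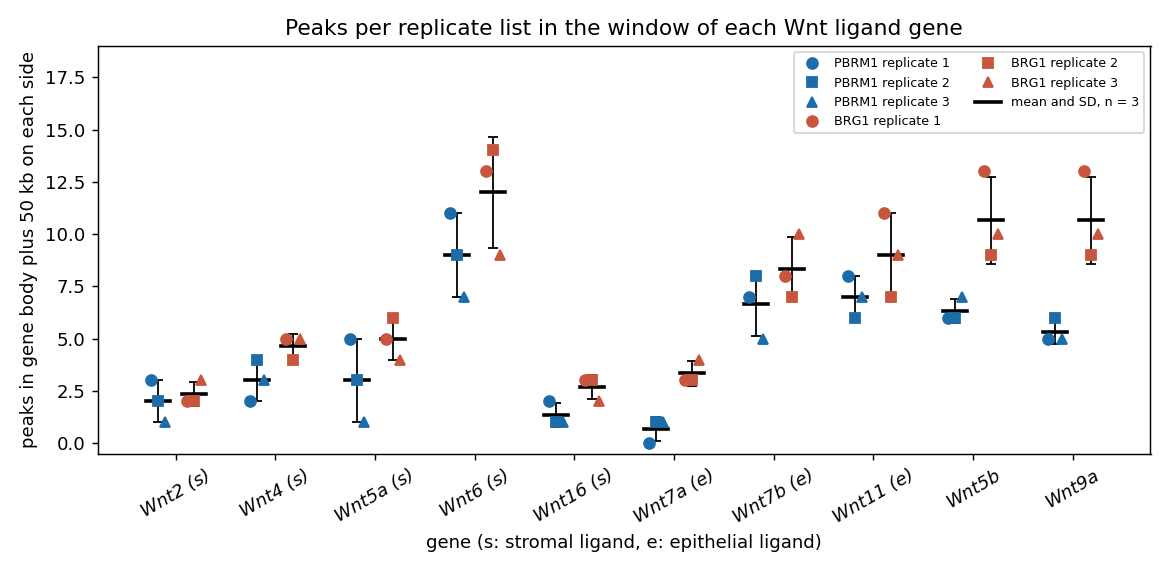
Number of peaks in the gene body plus 50 kb on each side (vertical axis) for each gene, by replicate of PBRM1 (blue) and BRG1 (red), with the mean and SD of 3 replicates in black. The symbols of the antibodies are apart at *Wnt7a*, *Wnt5b* and *Wnt9a* and overlap or touch at the others.

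Against other genes, *Wnt6* stood high in both lists, with a mean PBRM1 count of 9.0 ± 2.0 (SD, n = 3) at the 97.0 percentile of protein-coding genes and a mean BRG1 count of 12.0 ± 2.65 (SD, n = 3) at the 96.9 percentile. *Wnt7b*, *Wnt11* and *Wnt5b* were at the 90.1, 91.6 and 88.5 percentiles for PBRM1. The counts are from windows of unlike length, and that of *Wnt5b* was the longest. Per 100 kb of window, the mean PBRM1 count was 2.99 at *Wnt5b*, beside 4.53 at *Wnt7b*, 5.83 at *Wnt11* and 7.93 at *Wnt6*. *Wnt7a* was lowest, at the 23.5 percentile for PBRM1, with *Wnt16* at 33.9 and *Wnt2* at 43.9.

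Sites were also compared by the replicates of each antibody. Of the 148 sites, 4 had a peak in all 3 BRG1 replicates and none in the PBRM1 replicates, or 2.70%, beside 2.22% of all merged sites of the genome. These were the *Wnt5a* coding exon, the *Wnt5b* intron and the *Wnt3a* promoter described above, and a site 22.5 kb past the 3′ end of *Wnt6*, with BRG1 values of 3.75, 3.19 and 4.55. Each of the 4 did have a peak in the pooled PBRM1 list, at fold enrichments of 3.42, 2.93, 3.09 and 3.04 in this order. They are therefore not sites that the pooled PBRM1 list lacks. These peaks ranked at the 23.7, 11.4, 12.9 and 60.6 percentiles of that list in the same order. At the *Wnt6* site the pooled PBRM1 and BRG1 summits lay 429 bp apart. None of the 148 had a peak in all 3 PBRM1 replicates and no BRG1 replicate, and 30 of the 93421 merged sites did. At the 18 sites shared by all 6 replicates, the pooled PBRM1 and BRG1 summits lay 11 to 460 bp apart, with a median of 68.0 bp.

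To compare stromal with epithelial ligands, the peaks per gene and the share of genes with a promoter peak were taken in each replicate. The members were chosen with results of these data known and genes are not replicates, so these are values with no test. For PBRM1, 4, 5 and 3 of the 5 stromal ligands had a promoter peak in replicates 1, 2 and 3, beside 1 of the 3 epithelial ligands in each replicate, which was *Wnt11*. The mean shares were 80.0% ± 20.0 and 33.3% ± 0.00 (SD, n = 3). For BRG1, 5, 4 and 4 stromal ligands and 2, 1 and 3 epithelial ligands had a promoter peak, mean shares of 86.7% ± 11.5 and 66.7% ± 33.3 (SD, n = 3). Of all protein-coding genes, 52.2% had a promoter peak in all 3 PBRM1 replicates and 61.4% in all 3 BRG1 replicates. Their share in a single replicate was not counted, so neither set can be placed above or below it. The stromal share was the higher in the 3 PBRM1 replicates and in BRG1 replicates 1 and 2, and the lower in BRG1 replicate 3. With a narrow stromal set of *Wnt4*, *Wnt5a* and *Wnt16*, the shares were equal in PBRM1 replicate 3, at 33.3%. The BRG1 difference of 20 percentage points was 6.67 without BRG1 replicate 2 and 40 without BRG1 replicate 3.

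The order of the sets depended on the distance counted. In windows of 50 kb, the 5 stromal genes had 3.67 ± 1.01 PBRM1 peaks per gene (SD, n = 3) and the 3 epithelial genes 4.78 ± 0.38, with the stromal value the lower in each replicate. The BRG1 values were 5.33 ± 0.64 and 6.89 ± 1.07 (SD, n = 3), with the stromal value the lower in 2 of 3 replicates. Per 100 kb of window, which takes account of the different window lengths, the stromal minus epithelial difference in PBRM1 peaks was −0.51 ± 0.58 (SD, n = 3) and that in BRG1 peaks −0.63 ± 1.28 (SD, n = 3). Both were smaller than their SD, and the stromal value was the higher in PBRM1 replicate 1 and BRG1 replicate 2. In windows of 10 kb, the stromal genes had more, with 2.40 ± 0.80 PBRM1 peaks per gene against 1.11 ± 0.19 and 3.53 ± 0.31 BRG1 peaks against 1.56 ± 0.69 (SD, n = 3), and the stromal value was the higher in 6 of 6 replicates. *Wnt7a* and *Wnt7b* had 0 PBRM1 peaks within 10 kb in 3 and 2 replicates, respectively, whereas each stromal gene had at least 1 in every replicate. *Wnt11* went with the stromal genes, with 3 PBRM1 peaks within 10 kb in each of its 3 replicates. *Wnt6*, with the most peaks of the stromal set, did not set the order within 10 kb, where without it the stromal genes still had 2.08 ± 0.76 PBRM1 and 3.00 ± 0.00 BRG1 peaks per gene (SD, n = 3).

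**Figure D5:**
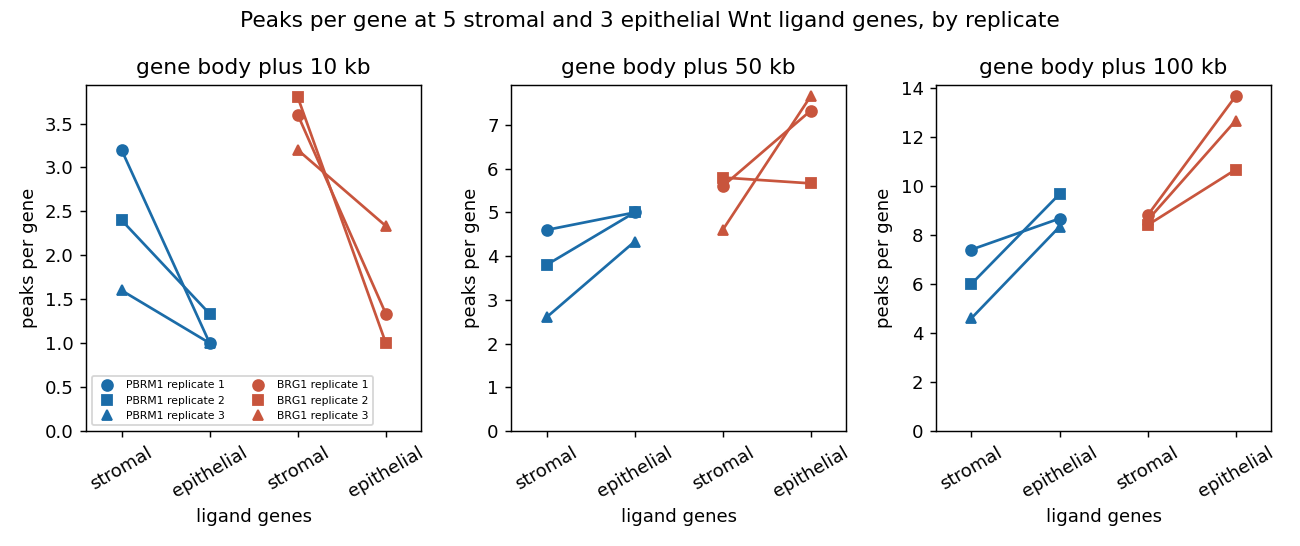
Peaks per gene (vertical axes, from 0) at the 5 stromal and 3 epithelial *Wnt* genes, counted in the gene body plus 10, 50 or 100 kb on each side (panels), with each line joining the values of 1 replicate of PBRM1 (blue) or BRG1 (red). The 6 lines fall from stromal to epithelial at 10 kb and rise at 100 kb.

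In the wider family, pooled promoter peaks were found at 7 of the 9 other *Wnt* genes for PBRM1 and 8 for BRG1, beside 68.7% and 72.1% of all genes. In all 3 BRG1 replicates, 6 of the 9 had a promoter peak, beside 7 of the 10 genes described here and 61.4% of all genes. In all 3 PBRM1 replicates none of the 9 had one, beside 6 of the 10 and 52.2% of all genes. The 10 genes were chosen with results of these data known, and these differences were not tested. The receptor and secretion genes were mostly marked. All 17, which comprise the 10 Frizzled genes, the coreceptors *Lrp5* and *Lrp6*, the receptors *Ror1*, *Ror2* and *Ryk*, *Porcn*, which lipidates WNT proteins, and *Wls*, which carries them to the cell surface, had a promoter peak in both pooled lists. Of these, 13 had a promoter peak in all 6 replicates, beside the 51.9% of all genes, and the 4 that did not were *Fzd6*, *Fzd10*, *Lrp5* and *Lrp6*.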

How the data were processed

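ChIC-Seq peak lists of PBRM1 and BRG1 in D4 primary uterine stromal cells were analysed, with 3 replicate lists and 1 pooled list for each antibody. The authors trimmed read pairs, aligned them with Bowtie2, kept reads with a mapping quality of at least 20, removed duplicates and called peaks with MACS 2.2.7.1. The submitters' processing notes name cutadapt and the build GRCm38.p5. Per the file headers, no control file was used, the q-value cutoff was 0.05 and the regional background spanned 10000 bp. For each peak the deposited lists give a pileup signal (fragments at the summit), its −log10 q-value, and the fold enrichment as a ratio to the local background. Because each list was scored against its own library, fold enrichments of different lists were set side by side and not subtracted.

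Peaks were intersected with GENCODE vM21 TSSs and gene bodies in Python 3.11.15 (numpy 2.4.6, pandas 2.3.3, scipy 1.17.1, matplotlib 3.10.9), with a minimum overlap of 1 bp, and bedtools 2.31.1 gave the same window counts for all 8 lists. No peak ended past its chromosome in GRCm38, from which sequences were read with pysam 0.24.0. The overlap step was tested on simulated data. The local background was computed as (pileup + 1) divided by the fold enrichment, minus 1, over the genome mean. Window counts were compared with a two-sided exact permutation test of 3 against 3 replicates. The labels do not say whether replicates came from separate preparations. In the legend of its signal tracks, the paper calls the 3 replicates biological. The p values measure the spread between these libraries. PBRM1 and BRG1 replicates share numbers, but at 13092 sites common to all 6 lists the deviations of same-numbered replicates from their group means correlated at −0.04, −0.01 and −0.01, and the numbers were not taken as pairs.

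The text names all 10 members, other genes at whose promoter a window peak lies, and the receptor and secretion genes as a set. The members and lists were chosen with earlier results of these data known, and the 8 strings searched, the base composition, the local background and the division without *Wnt6* were chosen after values were seen. Alternatives were other promoter distances and windows, transcripts of protein-coding type, stricter peaks, summits, equal list lengths, the replicate block and each replicate left out.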

Additional observations from a re-analysis of the deposited data

How the results depend on the processing

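Pooled promoter peaks were found at 7 to 10 genes for PBRM1 and 9 to 10 for BRG1 under the alternatives, and a promoter peak in every replicate at 4 to 7, where a −log10 q of at least 5 gave 4 (*Wnt2*, *Wnt6*, *Wnt11* and *Wnt9a*), a fold enrichment of at least 4 also gave 4 (with *Wnt5b* in place of *Wnt9a*) and leaving out a replicate number gave 6 to 7. The number of genes whose BRG1 counts all lay above the PBRM1 counts was 3. It was 5 with a −log10 q of at least 5, 1 in windows of 10 kb, 0 with equal list lengths, and 3 to 5 with a replicate left out, where PBRM1 replicate 1, BRG1 replicate 2 and BRG1 replicate 3 each gave 5. With the replicate block, each BRG1 count was above the PBRM1 count of the same number in 6 genes, where 3 pairs cannot give a p below 0.25. The share of all protein-coding genes was counted for the main setting only, at 22.1%. The counts under the alternatives therefore have no background beside them. The difference, BRG1 minus PBRM1, turned negative for *Wnt4* (−1.0), *Wnt7b* (−1.0) and *Wnt5b* (−0.67) with equal list lengths, for *Wnt11* (−0.33) in windows of 10 kb and for *Wnt2* without PBRM1 replicate 3, where leaving out 1 replicate gave −0.17 to 0.83. The cause was not tested.

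Pooled PBRM1 peaks in the windows numbered 100 in all, 65 with a −log10 q of at least 5, 39 with a fold enrichment of at least 4, 51 within 10 kb and 169 within 100 kb. Pooled BRG1 peaks numbered 140, and 67 with a fold enrichment of at least 4, 74 within 10 kb and 226 within 100 kb. The stromal minus epithelial difference in PBRM1 peaks per gene was −1.11, and −2.33 with the narrow gene sets (*Wnt4*, *Wnt5a* and *Wnt16* as stromal), −2.89 within 100 kb, −2.44 without *Wnt6*, 1.29 within 10 kb and 0.97 within 10 kb without *Wnt6*, and −1.47 to −0.80 with a replicate left out. For BRG1 it was −1.56, and −3.73 within 100 kb, −3.22 without *Wnt6*, 1.98 within 10 kb and 1.44 within 10 kb without *Wnt6*, and −2.40 to −0.80 with a replicate left out. Per 100 kb of window the differences were −0.51 for PBRM1 and −0.63 for BRG1. The stromal minus epithelial promoter share was 46.7 percentage points for PBRM1, and 33.3 with the narrow gene sets, 26.7 where the −log10 q had to reach 5, and 36.7 to 56.7 with a replicate left out. For BRG1 it was 20 points, and 11.1, 40 and 6.67 to 40 in the same order. The deepest PBRM1 replicate had the fewest peaks, and the part of depth in the 51 sites without a replicate peak was not tested.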
